A study of Mus musculus with 80 samples.

Results

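Transcripts of 9 genes of the STAT5 pathway were followed in mouse blood stem and progenitor cells: the feedback genes Socs1, Socs2, Socs3 and Cish, the kinase genes Pim1 and Pim2, the cytokine gene Osm, and Stat5a and Stat5b themselves. They were selected by symbol, each with 1 Ensembl identifier, and all 9 were found in both deposited gene tables, of 41388 and 40481 genes. The study sequenced bulk RNA of B6 background mice, from hematopoietic stem cells (HSC) and the progenitors downstream of them (HPC), in 80 libraries of 20 groups.

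In the age series, HSC were taken before birth at E14.5, E16.5 and E18.5 (here E14, E16 and E18, with 3, 4 and 3 libraries). After birth they were taken on the day of birth (P0), on day 7 (P7), on day 14 (P14) and at an age of 8 weeks (Adult), with 4 libraries each. HPC were taken at E16 (3 libraries), P0 and P7 (4 each), P14 (5) and Adult (4). The labels of these ages give no genotype beyond the strain. At P0, cells labelled Ifnar ko (4 HSC and 4 HPC libraries) were set against cells labelled wild type (5 HSC and 4 HPC libraries). At P14, HPC came from 4 genotypes: Ifnar -/-, Flt3 ITD/+ (5 libraries), Ifnar -/-, Flt3 +/+ (4), Ifnar +/-, Flt3 ITD/+ (4) and Ifnar +/-, Flt3 +/+ (4). Every P14 genotype group thus carries at least 1 Ifnar - allele, and no Ifnar +/+ group of that kind was analysed here. The labels do not say how the Ifnar and Flt3 alleles were built, which surface markers defined the cells, or whether libraries of a group came from separate animals, so p-values measure the spread between these libraries, which may be technical.

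STAT5A and STAT5B are transcription factors that wait in the cytoplasm until JAK kinases phosphorylate them at an activated cytokine receptor. In blood cells they carry signals from the receptors of erythropoietin, GM-CSF and related cytokines. Cish and the Socs genes are switched on by this signal, and their SH2 domain proteins bind receptors or JAKs and damp it, which closes a negative feedback loop. Pim1 and Pim2 encode serine/threonine kinases that promote survival and growth, and Osm encodes oncostatin M, a cytokine of the IL6 family; all are known STAT5 targets. FLT3 is a receptor tyrosine kinase of early progenitors. An internal tandem duplication (ITD) in its juxtamembrane part makes it signal without ligand, and STAT5 is among the factors it then activates.

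STAT5 dimers bind the palindrome TTCNNNGAA. It was searched on RefSeq promoter windows of build GRCm38.p6, which run from 250 bases before to 50 bases after a transcription start. The motif reads the same on both strands, and its matches do not overlap each other. The table held 10 windows for 7 of the 9 genes, and Socs2 and Osm had no entry. Matches were found in the windows of Cish and Socs3, and none in those of Socs1, Pim1, Pim2, Stat5a and Stat5b. Of all 32851 windows in the table, 8.3% hold the motif. The Cish window is shown because this gene rose in both Flt3 ITD comparisons and its window holds a tandem pair of matches, the first beginning at base 1 and the second at base 12 counted from the transcription start. The Socs3 window is the other with a match, beginning 154 bases before the start. The Pim1 window is shown as that of a gene that also rose with the ITD and whose window has no match. Capitals mark the motif, and all are written 5′ to 3′ on the strand of the gene.
Cish, chr9:107296409-107296708, plus strand: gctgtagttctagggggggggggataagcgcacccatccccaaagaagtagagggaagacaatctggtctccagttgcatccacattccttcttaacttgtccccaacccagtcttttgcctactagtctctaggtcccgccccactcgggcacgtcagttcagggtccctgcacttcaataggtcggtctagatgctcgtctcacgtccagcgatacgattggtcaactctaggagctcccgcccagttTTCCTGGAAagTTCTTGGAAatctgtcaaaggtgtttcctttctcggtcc
Socs3, chr11:117969317-117969616, minus strand: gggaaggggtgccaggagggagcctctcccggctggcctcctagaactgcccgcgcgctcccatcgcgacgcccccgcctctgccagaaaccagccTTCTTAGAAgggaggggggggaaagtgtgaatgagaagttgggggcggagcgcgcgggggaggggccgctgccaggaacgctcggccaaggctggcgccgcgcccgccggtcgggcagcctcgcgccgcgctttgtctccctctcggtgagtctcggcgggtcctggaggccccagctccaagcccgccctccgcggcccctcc
Pim1, chr17:29490535-29490834, plus strand: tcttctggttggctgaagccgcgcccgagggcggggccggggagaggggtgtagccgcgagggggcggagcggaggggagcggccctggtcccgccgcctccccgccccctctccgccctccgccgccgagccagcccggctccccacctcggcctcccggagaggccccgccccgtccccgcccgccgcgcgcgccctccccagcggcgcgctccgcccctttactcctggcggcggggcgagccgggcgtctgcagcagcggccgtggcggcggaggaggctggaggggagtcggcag
A match describes these letters, not occupancy by a factor.

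Levels are given as RPKM, reads per kilobase of exon scaled to library depth, and fold changes as log2 values with their standard error (SE). Depth ran from 6.95 to 25.38 M reads per library in the age series, from 11.68 to 46.3 at P0 and from 58.4 to 92.1 at P14. Stat5a and Stat5b are neighbours with similar sequence: 8.13% of the 50-base stretches of Stat5a transcripts also occur in Stat5b, so reads could in part be split between them. Exons of Cish and Pim1 overlap antisense transcripts, and those of Stat5a overlap the end of Stat3. No source used here says that the counting used strand, and without strand such reads cannot be told apart. Socs1 was nearly silent everywhere, with 0 to 40 reads per library, and passed the filter on low values only in P0 HSC and P14 HPC. The other 8 genes were tested in all 26 comparisons. Ifnar1 did not check the knockout labels: it averaged 11.2 ± 0.93 RPKM in Ifnar ko HSC and 10.7 ± 1.88 in wild type HSC at P0 (SD, n = 4 and 5), and a gene total can hold reads from outside a deleted part. Among all 80 libraries, replicate 2 of the P14 Ifnar +/-, Flt3 +/+ group had the lowest median correlation with its own group, 0.932 against 0.968 to 0.97 for the other 3, and its Flt3 level was 140.5 RPKM against 13.4 to 20.7. Flt3 stood at 16.1 to 57.7 RPKM in Ifnar -/-, Flt3 ITD/+ HPC, against 78.4 to 132.8 in Ifnar -/-, Flt3 +/+ HPC, and at 55.8 to 70.4 in Ifnar +/-, Flt3 ITD/+ HPC. A gene total does not show the duplication, so it did not check the ITD labels. Results that rest on this replicate 2 are given with and without it. In the deposited HSC columns, E14, E16 and E18 share a name prefix, P7 and P14 another, and P0 and Adult another still, while each HPC age has its own letter. What these names mark is not given, so an HSC step across prefixes, an HPC step or a difference of HSC from HPC cannot be told apart from it.

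Of the 9 genes, Socs2 and Cish were the most changed by the Flt3 ITD at P14, in Ifnar +/- and Ifnar -/- HPC alike called higher. Pim1 and Pim2 rose by less, and the STAT5 genes themselves did not pass the test. In Ifnar +/- HPC, 4 of the 9 genes were called higher and none lower, where a call is an adjusted p under 0.05 in edgeR's quasi-likelihood test and 4.84% of 17464 genes tested were called. In Ifnar -/- HPC, 2 of the 9 were called, both higher, against 0.962% of all genes. Over both Ifnar genotypes together, 4 of 9 were called, all higher, against 2.98% of all genes. The median log2 fold change of the 9 genes was 1.04 over both genotypes, while that of all genes tested was 0. In bulk RNA a change in the share of cells that express a gene and a change in its RNA per cell cannot be told apart.

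Socs2 encodes an adaptor of a ubiquitin ligase that targets the growth hormone receptor and other receptors. It stood at 14.03, 18.47, 9.21 and 12.3 RPKM in Ifnar +/-, Flt3 ITD/+ HPC, against 1.17, 0.843, 0.419 and 0.866 RPKM in Ifnar +/-, Flt3 +/+ HPC. In Ifnar -/- HPC it stood at 17.9, 14.2, 18.6, 17.1 and 18.6 RPKM with the ITD, against 1.64, 1.26, 1.31 and 0.931 RPKM without it. The lowest ITD library thus lay far above the highest Flt3 +/+ library in either Ifnar genotype. The log2 fold change was 3.96 ± 0.25 in Ifnar +/- HPC, a 15.5-fold rise (edgeR adjusted p = 8.08e-08), and 3.83 ± 0.24 in Ifnar -/- HPC, a 14.2-fold rise (adjusted p = 9.02e-08). The difference between these effects was -0.12 ± 0.30, which the test of the interaction did not call (edgeR adjusted p = 0.81). By edgeR none of the 9 genes and 0.0115% of all genes were called for the interaction, while DESeq2 called 1 of the 9, Stat5a, and 2534 of 17464 genes.

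Cish, the founding feedback gene of the STAT5 pathway, followed the same order of groups. Its levels were 9.76, 13.4, 6.97 and 8.43 RPKM in Ifnar +/-, Flt3 ITD/+ HPC, against 1.8, 3.92, 2.03 and 1.93 RPKM in Ifnar +/-, Flt3 +/+ HPC. In Ifnar -/- HPC they were 11.9, 15.1, 13.2, 9.42 and 9.08 RPKM with the ITD, against 2.09, 4.48, 3.65 and 3.11 RPKM without it. The groups did not overlap in either Ifnar genotype, and replicate 2 was the highest of the Ifnar +/-, Flt3 +/+ libraries. The rise was 1.92 ± 0.27 on the log2 scale in Ifnar +/- HPC (edgeR adjusted p = 0.00072) and 1.86 ± 0.26 in Ifnar -/- HPC (adjusted p = 0.000713), or 3.71-fold over both genotypes. The interaction estimate was -0.06 ± 0.36 (adjusted p = 0.94).

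**Figure D1:**
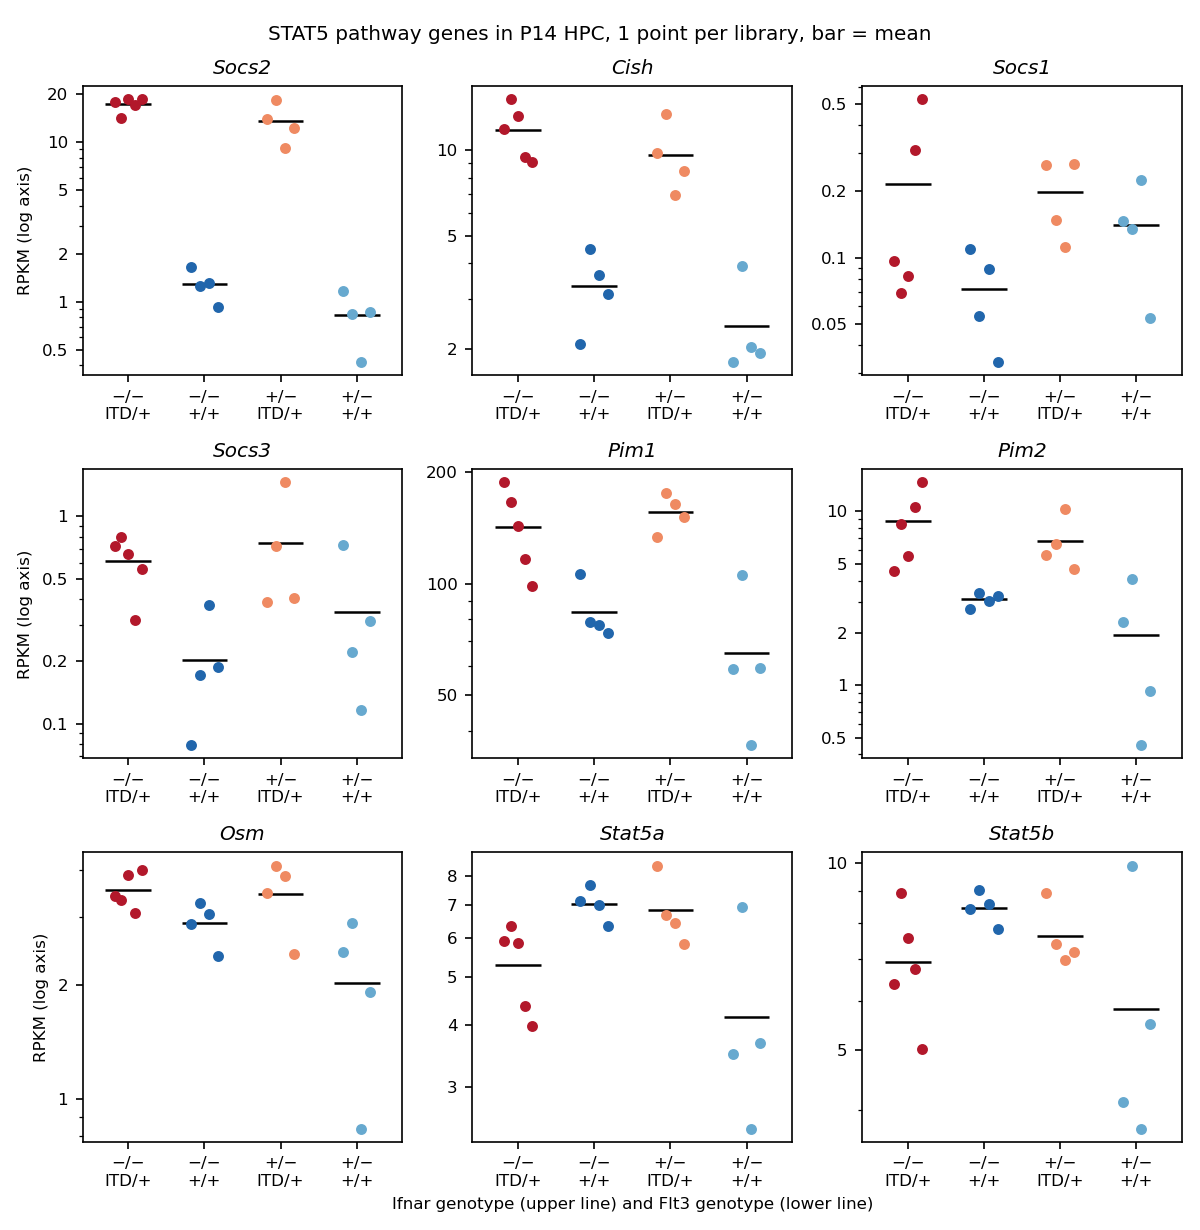
Level of each of the 9 genes in the 17 P14 HPC libraries, in RPKM on a log axis, by Ifnar genotype and Flt3 genotype. Points are libraries and bars are group means. Socs2, Cish and Pim2 do not overlap between ITD/+ and +/+ libraries, whereas Stat5a and Stat5b do.

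Pim1 was the most abundant of the 9 genes per length, and it was about 2-fold higher with the ITD. It had 133.9, 176.1, 164.5 and 151.4 RPKM in Ifnar +/-, Flt3 ITD/+ HPC, against 58.8, 105.5, 36.6 and 59.0 RPKM in Ifnar +/-, Flt3 +/+ HPC. In Ifnar -/- HPC it had 187.6, 166.3, 143.4, 116.4 and 98.3 RPKM with the ITD, against 106.3, 78.9, 77.3 and 73.5 RPKM without it. The Ifnar +/- groups did not overlap, while in Ifnar -/- HPC the highest Flt3 +/+ library lay above the lowest ITD library. The rise was called in Ifnar +/- HPC, at 1.23 ± 0.22 on the log2 scale (edgeR adjusted p = 0.0039), and not in Ifnar -/- HPC, at 0.84 ± 0.21 (adjusted p = 0.0673). These effects differed by -0.39 ± 0.29, which was not called (adjusted p = 0.38), and over both genotypes Pim1 rose by 1.03 ± 0.15 (adjusted p = 0.000347).

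Pim2, a close relative of Pim1, stood at 5.62, 6.47, 10.3 and 4.65 RPKM in Ifnar +/-, Flt3 ITD/+ HPC, against 2.31, 4.1, 0.451 and 0.928 RPKM in Ifnar +/-, Flt3 +/+ HPC. With Ifnar -/-, it stood at 4.52, 8.46, 5.53, 10.6 and 14.7 RPKM in Flt3 ITD/+ HPC, against 2.73, 3.41, 3.07 and 3.28 RPKM in Flt3 +/+ HPC. The 9 ITD libraries all lay above the 8 Flt3 +/+ libraries. The log2 fold change was 1.79 ± 0.49 in Ifnar +/- HPC, near the threshold (edgeR adjusted p = 0.0439), 1.57 ± 0.47 in Ifnar -/- HPC (adjusted p = 0.163), and 1.68 ± 0.34 over both genotypes (adjusted p = 0.00705). The call in Ifnar +/- HPC ended when any of its 8 libraries other than replicate 2 of Flt3 +/+ was left out, with adjusted p from 0.056 to 0.125, whereas the call over both genotypes held in each such fit. The Ifnar +/- call also ended with only the groups compared (adjusted p = 0.154) and with a term for Y-linked genes (0.0531).

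The other 5 genes were not called by the ITD in any of these comparisons. Socs3, which encodes the main brake on gp130 receptors, ranged from 0.316 to 1.46 RPKM in the ITD libraries, against 0.0789 to 0.732 RPKM in the Flt3 +/+ libraries, and its log2 difference over both genotypes was 1.33 ± 0.39 (edgeR adjusted p = 0.0847). Osm ranged from 2.4 to 4.1 RPKM with the ITD and from 0.839 to 3.28 RPKM without it, a difference of 0.54 ± 0.17 (adjusted p = 0.118). Socs1 was at 0.069 to 0.526 RPKM with the ITD and 0.0335 to 0.225 RPKM without it, which is 5 to 40 and 3 to 17 reads. Its difference of 1.04 ± 0.49 could not be separated from 0 (adjusted p = 0.38).

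Stat5a and Stat5b gave estimates of opposite sign in the Ifnar genotypes. Stat5a had 8.39, 6.68, 6.41 and 5.83 RPKM in Ifnar +/-, Flt3 ITD/+ HPC, against 3.49, 6.92, 2.47 and 3.68 RPKM in Ifnar +/-, Flt3 +/+ HPC, a log2 difference of 0.67 ± 0.21 (edgeR adjusted p = 0.0648). In Ifnar -/- HPC it had 5.91, 6.34, 5.85, 4.36 and 3.98 RPKM with the ITD, against 7.1, 7.65, 6.98 and 6.34 RPKM without it, a log2 difference of -0.34 ± 0.20 (adjusted p = 0.501). The interaction was -1.01 ± 0.29 (adjusted p = 0.0872), and for Stat5b it was -0.56 ± 0.30 (adjusted p = 0.207). Both rest on the Ifnar +/-, Flt3 +/+ group, in which replicate 2 had 6.92 RPKM of Stat5a and 9.89 of Stat5b and the other 3 had 2.47 to 3.68 and 3.74 to 5.51. Without replicate 2, the interaction was -1.33 ± 0.22 for Stat5a (adjusted p = 0.000722) and -0.89 ± 0.22 for Stat5b (adjusted p = 0.00694), and Pim1 was called as well, at -0.68 ± 0.24 (adjusted p = 0.0404). These 3 of 9 genes stand beside 5592 of 17464 genes called for the interaction in that fit, in place of 2 with the library. Leaving out this library also brought Osm, Stat5a and Stat5b to a call in Ifnar +/- HPC, at 0.91, 0.97 and 0.66 on the log2 scale, which makes 7 of the 9 genes, while calls over all genes in that comparison then numbered 5804 in place of 846. Over both genotypes it brought Osm to a call, at 0.62 ± 0.17 (adjusted p = 0.0321), with 1364 calls over all genes in place of 520.

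**Figure D2:**
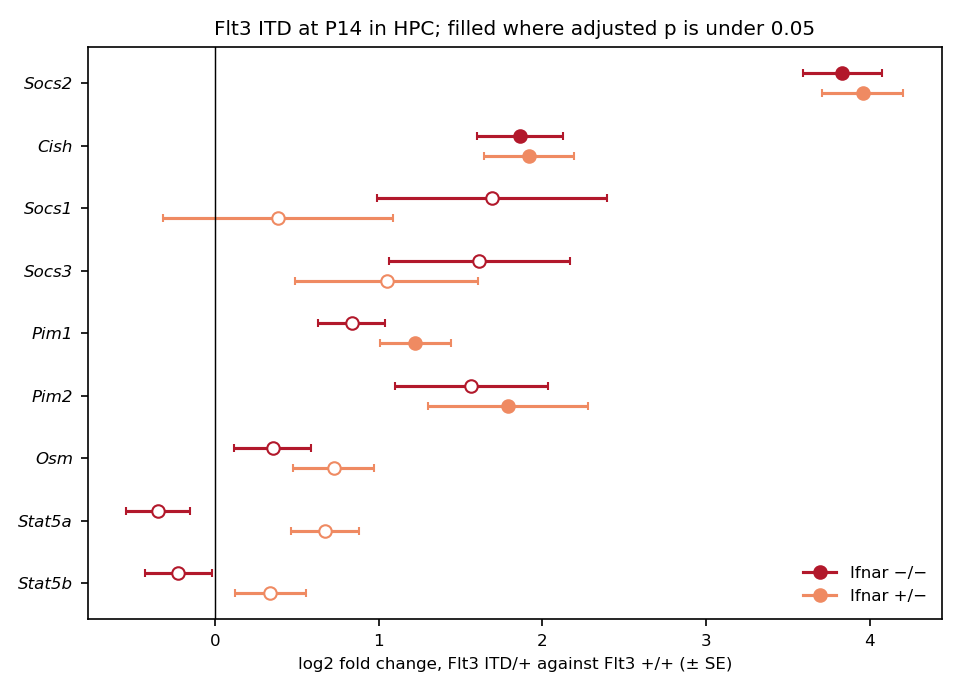
Effect of the Flt3 ITD at P14 on each of the 9 genes, as log2 fold change of ITD/+ against +/+ with bars of ± 1 SE, in Ifnar -/- (upper of each pair) and Ifnar +/- HPC (lower). Filled points passed the test. Socs2 lies near 4 and Cish near 2 in both, and the points of Stat5a and Stat5b lie on opposite sides of 0.

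Of 13 other genes known as STAT5 targets, 2 rose and 2 fell over both Ifnar genotypes, with a list median of 0.44 on the log2 scale. Cdkn1a, which encodes the cell cycle inhibitor p21, rose by 2.25 ± 0.19 (edgeR adjusted p = 7.49e-07), and Id1, an inhibitor of helix-loop-helix factors, rose by 1.84 ± 0.24 (adjusted p = 8.48e-05). Ccnd1, the cyclin D1 gene, fell by 2.31 on the log2 scale (adjusted p = 3.39e-05), and Bcl6, a repressor that STAT5 is known to silence, fell by 2.38 (adjusted p = 0.0175). In Ifnar +/- HPC alone, 5 of the 13 rose and 1 fell, the additional rising genes being the survival genes Bcl2 (1.19 ± 0.18) and Bcl2l1 (1.04 ± 0.27), and Myc (1.10 ± 0.25). Bcl2 was also 1 of only 2 genes of 17464 called for the interaction by edgeR, at -1.68 ± 0.24 (adjusted p = 0.0331), with 5190 genes at an unadjusted p under 0.05. That count of 2 rests on replicate 2 of Ifnar +/-, Flt3 +/+, without which edgeR called 5592.

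Upstream of STAT5, 2 of 16 receptor and kinase genes rose and 1 fell over both genotypes. The rising pair were Csf2rb (1.02 ± 0.16), the shared beta chain of the receptors for IL3, IL5 and GM-CSF, and Csf2rb2 (0.96 ± 0.24), a beta chain of the IL3 receptor only. Their sequences are close enough for reads to be split between them. Il7r, the interleukin 7 receptor gene, fell by 1.14 on the log2 scale (edgeR adjusted p = 0.023). Of 10 other Socs, Pim and Stat genes only Socs4 was called over both genotypes, lower by 0.46 on the log2 scale. In Ifnar +/- HPC, 2 of these 10 were called higher, among them the interferon signalling gene Stat2 (1.22 ± 0.31). Of 11 other negative regulators, Sh2b3, which encodes the adaptor LNK, was called lower by 0.46 over both genotypes, and none of the 4 oncostatin and gp130 receptor genes was called.

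Of 6 macrophage markers, 2 moved with the ITD in the same direction as Socs2. Adgre1 was at 2.97 to 6.17 RPKM in the 9 ITD libraries, against 0.279 to 0.917 in the 8 Flt3 +/+ libraries, and Csf1r was higher by 1.70 ± 0.29 on the log2 scale (edgeR adjusted p = 0.00146). The complement genes C1qa, C1qb and C1qc, which mark mature macrophages, were not called, with C1qa at 0.0647 to 0.668 RPKM with the ITD and 0.129 to 0.635 without it. C1qb was at 0.557 to 1.74 RPKM in Ifnar -/-, Flt3 ITD/+ HPC, below all Ifnar -/-, Flt3 +/+ libraries at 1.88 to 3.91, while in Ifnar +/- HPC the groups overlapped, at 0.598 to 4.9 with the ITD and 3.12 to 8.4 without it. The summed level of the 6 markers was 12.0 to 79.1 RPKM in Ifnar -/-, Flt3 ITD/+ HPC, 8.96 to 19.9 in Ifnar -/-, Flt3 +/+ HPC, 19.3 to 34.6 in Ifnar +/-, Flt3 ITD/+ HPC and 17.4 to 34.2 in Ifnar +/-, Flt3 +/+ HPC. The sum includes Vcam1, which was not called and whose single values are not given here. In Ifnar -/-, Flt3 ITD/+ HPC no library exceeded 6.17 RPKM of Adgre1, 6.83 of Csf1r or 1.74 of C1qb, so most of its highest sum was Vcam1. None of the 6 was at 0 in a whole group. Over both genotypes, edgeR also called 1 marker each of HPC (Cd48, 0.85 ± 0.11), neutrophils (Ltf, 0.96 ± 0.23) and B cells (Ebf1, 1.63 ± 0.43) higher, and 1 each of HSC (Hlf, -0.73 ± 0.13) and erythroid cells (Hemgn, -0.67 ± 0.11) lower. In Ifnar +/- HPC the neutrophil marker S100a8 was lower with the ITD (-5.03, edgeR adjusted p = 0.0262). Summed neutrophil markers there were at 2.06 to 3.57 RPKM with the ITD and 2.99 to 54.6 without it, and in Ifnar -/- HPC at 5.05 to 9.05 and 2.97 to 4.11. Summed B cell markers were at 90.3 to 111.4 and 99.2 to 152.5 in Ifnar +/- HPC, and at 93.8 to 104.1 and 68.5 to 103.2 in Ifnar -/- HPC. The part of such cells in the changes of Socs2 and Cish was not tested.

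Loss of the second Ifnar copy at P14 gave no call among the 9 genes, either in Flt3 +/+ HPC, where 4.39% of 17464 genes were called, or in Flt3 ITD/+ HPC, where 4.03% were. At an unadjusted p under 0.05 these contrasts had 5367 and 3296 genes, and DESeq2 called 1 and 0 of the 9 beside 3146 and 1341 of all genes. For Socs2 the log2 difference of Ifnar -/- against Ifnar +/- was 0.45 ± 0.22 in Flt3 +/+ HPC and 0.33 ± 0.21 in Flt3 ITD/+ HPC (edgeR adjusted p = 0.172 and 0.41). For Cish it was 0.31 ± 0.27 and 0.26 ± 0.25 in the same groups (adjusted p = 0.435 and 0.617). Among the 9 genes, the smallest adjusted p of these contrasts was that of Stat5a in Flt3 +/+ HPC, at 0.61 ± 0.21 (adjusted p = 0.0771). Without replicate 2 of Ifnar +/-, Flt3 +/+, Pim1, Stat5a and Stat5b were called higher there, at 0.48, 0.91 and 0.71 on the log2 scale, and calls over all genes numbered 6223 in place of 766.

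In HSC of the age series, Cish climbed through development and was the gene of the 9 with the largest change. It stood at 2.11 ± 0.30 RPKM at E14, 2.51 ± 0.70 at E16, 5.55 ± 1.06 at E18, 5.47 ± 1.13 at P0, 7.23 ± 0.66 at P7, 19.2 ± 4.09 at P14 and 25.5 ± 1.69 at 8 weeks (SD, n = 3 or 4). The single libraries were 1.82 to 3.37 RPKM at E16, then 6.73, 4.71 and 5.19 at E18. They were 8.14, 6.63, 6.89 and 7.24 at P7, 16.7, 22.0, 23.3 and 14.9 at P14, and 26.6, 26.9, 23.1 and 25.3 in adults. The steps without overlap between neighbouring ages were E16 to E18, P0 to P7 and P7 to P14. By limma, E18 lay 0.99 ± 0.20 above E16 on the log2 scale (adjusted p = 0.0024), P14 lay 1.33 ± 0.18 above P7 (adjusted p = 0.000264), and the 2 remaining increases after birth, 0.41 ± 0.18 at P7 against P0 and 0.42 ± 0.18 in adults against P14, were not called. The steps at E18 and at P14 lie within 1 column prefix, and so does the pair of Adult and P0, of which the adult libraries all exceeded the P0 libraries, at 3.93 to 6.46 RPKM. The Adult and P0 pair was not tested. Its summed Y-linked level was 0.0692 to 0.155 RPKM in adults, against 29.5 to 51.2 at P0. Adult HSC exceeded E16 HSC by 3.14 ± 0.18, or 8.79-fold on this scale (adjusted p = 3.14e-13).

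Socs2 took another course in HSC, with its highest mean before birth. Its means were 1.95 ± 0.39 RPKM at E14, 3.56 ± 0.41 at E16, 9.92 ± 0.36 at E18, 6.45 ± 2.33 at P0, 7.78 ± 0.81 at P7, 6.52 ± 0.81 at P14 and 4.1 ± 0.98 in adults (SD, n = 3 or 4). At E18 the libraries were at 10.3, 9.56 and 9.91 RPKM, against 3.27, 3.56, 4.14 and 3.27 RPKM at E16, a rise of 1.33 ± 0.21 (limma adjusted p = 0.000215). The P0 libraries, at 4.13 to 9.18 RPKM, all lay below those of E18. That step crosses column prefixes, and its log2 difference of -0.62 ± 0.21 was not called (limma adjusted p = 0.0875). The adult libraries, at 5.2, 4.66, 3.24 and 3.3 RPKM, all lay below those of P14, at 5.35, 6.66, 7.18 and 6.89, but the log2 difference of -0.63 ± 0.19 was not called (adjusted p = 0.0563). Adult and E16 HSC could not be told apart, at 0.16 ± 0.19 (adjusted p = 0.606).

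Pim2 in HSC was high around birth and lower after it. Its mean was 27.0 ± 5.32 RPKM at E18 and 26.6 ± 7.59 at P0, then 9.77 ± 2.56 at P7 and 11.1 ± 1.03 at P14 (SD, n = 3 or 4). The P7 libraries, at 7.49, 10.6, 8.01 and 13.0 RPKM, lay below all P0 libraries, at 16.8, 32.6, 24.4 and 32.6, and the log2 difference was -1.37 ± 0.21 (limma adjusted p = 0.000191). This step crosses column prefixes, as do all comparisons of Adult with E16. Pim1 stayed between group means of 74.1 RPKM at P14 and 119.8 RPKM at E18, with no call at any step.

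Stat5a rose with age in HSC, while Stat5b had no called change. Stat5a averaged 6.61 ± 1.25 RPKM at E16, 8.43 ± 1.03 at P0, 11.3 ± 2.3 at P14 and 14.53 ± 2.18 in adults (SD, n = 4). The adult libraries, at 12.1 to 16.6 RPKM, all exceeded the E16 libraries, at 4.85 to 7.77, and the log2 fold change was 1.08 ± 0.17 (limma adjusted p = 2.38e-05), although none of the steps between neighbouring ages was called. Adult and P0 share a prefix, and all adult libraries exceeded those of P0, at 7.16 to 9.64 RPKM. This pair was not tested, and it is also split by Y-linked genes, at 0.0692 to 0.155 summed RPKM in adults and 29.5 to 51.2 at P0. Stat5b ran from a mean of 9.44 RPKM at E14 to 12.8 RPKM in adults, and adults differed from E16 by 0.23 ± 0.14 (adjusted p = 0.258).

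Osm and Socs3 were low and uneven in HSC. Osm had 66 to 136 reads (1.55 to 2.6 RPKM) in adult libraries and 0 to 16 reads (0 to 0.572 RPKM) in E16 libraries, a difference of 1.71 ± 0.43 (limma adjusted p = 0.00364). This call ended with a term for the Y-linked genes, which were absent or nearly so in all 4 adult HSC libraries at 0.0692 to 0.155 summed RPKM, against 10.8 to 42.4 at E16 (adjusted p = 0.0592). It also ended by edgeR on whole reads recovered from the RPKM (adjusted p = 0.056). Socs3 was at 1.52 to 2.6 RPKM in adults, above all E16 libraries at 0.197 to 1.47, and just missed a call (1.14 ± 0.43, adjusted p = 0.0507).

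Counted over the 8 genes tested in HSC, 3 were called higher in adults than at E16, namely Cish, Osm and Stat5a, and none lower, while 24.6% of 13358 genes were called. Between neighbouring ages, 2 of 8 were called at E18 against E16 (5.52% of all genes), 1 at P7 against P0 (5.91%), and 1 at P14 against P7 (1.75%). None of the 8 was called at E16 against E14 (0.0524% of all genes, with 806 genes at an unadjusted p under 0.05), at P0 against E18 (4.81%, with 2516) or in adults against P14 (5.43%, with 2371). By edgeR on recovered reads these gave 0, 0 and 1 calls. Of the macrophage markers, 4 of 6 were called higher in adult than in E16 HSC, with a summed level of 24.3 to 50.6 RPKM in adults, against 2.07 to 5.09 at E16. Summed megakaryocyte markers were at 204.9 to 253.9 RPKM in adults and 119.3 to 141.7 at E16. Their part in the results on age was not tested.

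**Figure D3:**
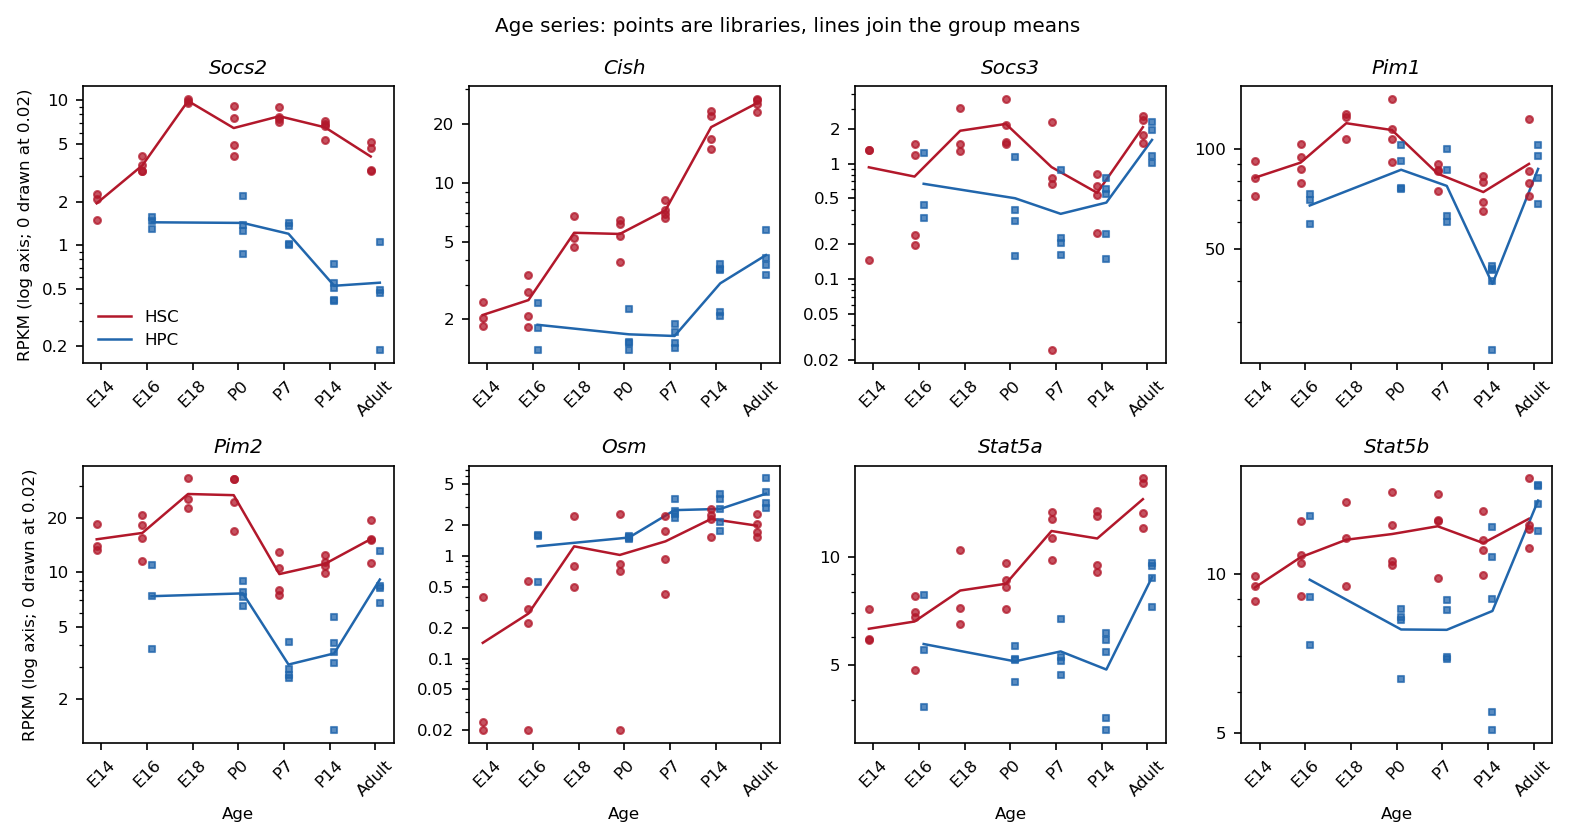
Level of 8 genes in RPKM on a log axis by age, with HSC as circles and HPC as squares. Points are libraries, and lines join the group means. Cish climbs in HSC to a mean of 25.5 RPKM in adults, whereas Socs2 in HSC has its highest mean at E18, at 9.92 RPKM.

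Other pathway genes in adult against E16 HSC moved in both directions. Among the other STAT5 targets, 4 of 11 tested rose and 4 fell: Myc (1.5 ± 0.15) and Bcl2 (1.61 ± 0.20) were higher, while Id1 was lower by 3.18 ± 0.26 and Igf1 by 1.68 ± 0.19 on the log2 scale, each with a limma adjusted p at or below 8.26e-07. Of 10 other Socs, Pim and Stat genes, 4 rose and none fell, among them Stat2 (0.69 ± 0.21), Stat3 (0.50 ± 0.14) and Socs7 (0.76 ± 0.19). Of 15 receptor and kinase genes tested, 2 rose, among them the kinase gene Jak1 (0.43 ± 0.11), and 4 fell, with Flt3 lower by 1.32 ± 0.24. Neither the 11 negative regulators nor the 2 oncostatin and gp130 receptor genes tested had a call.

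In HPC, Socs2 fell with age and Cish rose late. Socs2 averaged 1.44 ± 0.14 RPKM at E16, 1.43 ± 0.56 at P0, 1.2 ± 0.22 at P7, 0.525 ± 0.14 at P14 and 0.55 ± 0.36 in adults (SD, n = 3 to 5). The adult libraries, at 0.188, 1.06, 0.469 and 0.487 RPKM, lay below the E16 libraries, at 1.57, 1.29 and 1.46, and the log2 difference was -1.52 ± 0.37 (edgeR adjusted p = 0.00441). Its fall of 1.07 at P14 against P7 (adjusted p = 0.0414) lost its call when any library other than replicates 1 and 5 of P14 was left out (7 of 9 fits, adjusted p from 0.0608 to 0.11). Cish stood at 4.26 ± 1.05 RPKM in adults and 3.06 ± 0.86 at P14 (SD, n = 4 and 5), against 1.64 ± 0.21 at P7 and 1.88 ± 0.52 at E16 (SD, n = 4 and 3). It was higher by 1.0 ± 0.21 at P14 than at P7 (edgeR adjusted p = 0.00485) and by 1.05 ± 0.24 in adults than at E16 (adjusted p = 0.00249), without overlap in either pair. With a term for Y-linked genes the step from P7 to P14 was not called (adjusted p = 0.0874).

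Pim1 dipped at P14 in HPC of the age series. Its libraries were at 24.6, 39.9, 43.5, 43.2 and 44.3 RPKM at P14, below every library of P7, at 60.3 to 99.9, and of adults, at 68.4 to 102.9. In P14 HPC of the Flt3 +/+ genotype groups, Pim1 was at 73.5 to 106.3 RPKM with Ifnar -/- and 36.6 to 105.5 with Ifnar +/-. Those groups were not tested against the age series. The step down at P14 was -0.86 ± 0.16 (edgeR adjusted p = 0.00247), and adults then exceeded P14 by 0.93 ± 0.16 (adjusted p = 0.000356). Adults also exceeded P14 for Pim2, by 1.13 ± 0.29 (adjusted p = 0.00702), for Stat5a, by 0.65 ± 0.18 (adjusted p = 0.00993), and for Socs3, by 1.62 ± 0.55 (adjusted p = 0.0309), so that 4 of 8 genes were called higher where 28.9% of 14754 genes were called. In the same comparison 3 of 4 B cell, 2 of 5 neutrophil and 2 of 5 mast and basophil markers were lower. Summed B cell markers were at 81.2 to 110.7 RPKM in adults and 118.5 to 167.4 at P14, and their part was not tested. The Socs3 call ended without adult replicate 2 or 3 or P14 replicate 1 or 2, with adjusted p up to 0.0878.

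The remaining counts in HPC were small. At P7 against P0, 1 of 8 was called (1.5% of all genes), Pim2, lower by 1.34 ± 0.32 (edgeR adjusted p = 0.0293), a call that ended without any library but replicate 3 of P7 or replicate 4 of P0 (adjusted p from 0.0521 to 0.115). At P14 against P7, 1 of 8 rose and 2 fell (9.84% of all genes). At P0 against E16 none was called (3.27%, with 2598 genes at an unadjusted p under 0.05, and none of the 8 by DESeq2). In adults against E16, 2 rose and 1 fell (27.0%), the rising genes being Cish and Osm. Osm was at 4.26, 2.93, 5.73 and 3.32 RPKM in adult HPC, against 1.58, 1.6 and 0.554 RPKM at E16, a rise of 1.51 ± 0.32 (edgeR adjusted p = 0.00158). In the same comparison the oncostatin and gp130 receptor list had 1 of 3 tested genes called, Il6ra (1.05 ± 0.29). Of 12 other STAT5 targets tested, 4 rose, among them Bcl2 (2.32 ± 0.23) and Bcl6 (3.39 ± 0.54), and 4 fell, with Id1 lower by 5.19 ± 0.53 on the log2 scale. All 4 B cell markers were lower in adult HPC, with a summed level of 81.2 to 110.7 RPKM, against 108.7 to 184.2 at E16, 4 of 6 macrophage markers were higher and 1 was lower, and their part was not tested.

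In the age series, HSC held more Socs2 and Pim2 RNA than HPC at all 5 shared ages, and more Cish at the 4 ages from P0 on. The Socs2 difference, HSC minus HPC on the log2(RPKM + 0.5) scale, was 0.98 ± 0.23 at E16, 1.74 ± 0.21 at P0, 2.23 ± 0.21 at P7, 2.65 ± 0.20 at P14 and 2.16 ± 0.21 in adults, with limma adjusted p from 1.18e-13 to 0.0015. The Cish difference was 0.26 ± 0.20 at E16 (adjusted p = 0.371), 1.36 ± 0.18 at P0, 1.79 ± 0.18 at P7, 2.30 ± 0.17 at P14 and 2.49 ± 0.18 in adults. At P14 the HSC libraries had 14.9 to 23.3 RPKM of Cish and the HPC libraries 2.09 to 3.85. The Pim2 difference lay between 0.74 ± 0.27 in adults (adjusted p = 0.0313) and 1.59 ± 0.27 at P0. The E16 call of Pim2 ended without HPC replicate 2 (adjusted p = 0.0997), and the adult call ended without replicate 1, 3 or 4 of HPC or replicate 2 or 4 of HSC (adjusted p up to 0.113).

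Stat5a was also higher in HSC from P0 on, by 0.57 ± 0.17 at P0, 0.99 ± 0.17 at P7, 0.97 ± 0.16 at P14 and 0.71 ± 0.17 in adults, the last ending with a term for Y-linked genes (limma adjusted p = 0.112). Stat5b was called only at P0 (0.47 ± 0.17) and P7 (0.55 ± 0.17), and the P0 call ended without HPC replicate 3 or HSC replicate 3 or 4 (adjusted p up to 0.12). Pim1 was called at P14 (0.73 ± 0.15), the age of its dip in HPC, and Socs3 at P0 (1.39 ± 0.38). Osm ran the other way. It was lower in HSC by 1.21 ± 0.37 at E16 (adjusted p = 0.0143) and by 0.98 ± 0.34 at P7 (adjusted p = 0.0192), and each call ended in 3 fits that left out a library: replicate 1 or 2 of HPC or 1 of HSC at E16 (adjusted p up to 0.0959), and replicate 3 of HPC or 1 or 4 of HSC at P7 (up to 0.118). At P7 it also ended with a pseudocount of 0.1 (adjusted p = 0.0751) and by edgeR on recovered reads (adjusted p = 0.159).

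In counts, 2 of 8 genes were higher and 1 lower in HSC at E16 (23.6% of 14070 genes called), 6 and 0 at P0 (39.3%), 5 and 1 at P7 (42.1%), 5 and 0 at P14 (37.6%), and 4 and 0 in adults (29.0%). The median log2 difference of the 8 genes was 0.20, 0.96, 0.77, 0.85 and 0.52 at these ages, while the medians of all genes lay between -0.075 and -0.009. The change between E16 and Adult differed between the cell types for 2 of 8 genes (4.14% of all genes): the change in HSC minus that in HPC was 2.23 ± 0.27 for Cish (limma adjusted p = 4.09e-07) and 1.18 ± 0.31 for Socs2 (adjusted p = 0.0194). Cish rose with age in both cell types, by more in HSC, whereas Socs2 fell in HPC and had no called change in HSC. The Socs2 difference lost its call without HPC Adult replicate 1 or HPC E16 replicate 1 (adjusted p up to 0.0679). Marker lists differed between the sorted cells as their names say, with 4 of 6 HSC markers higher and 3 of 4 HPC markers lower in HSC at P14. Of 3 megakaryocyte markers tested, 3 were higher in HSC at P14, at a summed 206.4 to 273.0 RPKM against 66.7 to 115.8 in HPC. All 5 mast and basophil markers were lower in HSC at P0 and at P7, with a sum of 1.7 to 2.6 RPKM in HSC at P0, against 416.0 to 2827.3 in HPC. The 1 T and NK cell marker tested was lower in HSC at all 5 ages, and that list summed to 26.5 to 39.1 RPKM in HSC at P14, against 221.2 to 519.2 in HPC. The part of such cells was not tested.

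**Figure D4:**
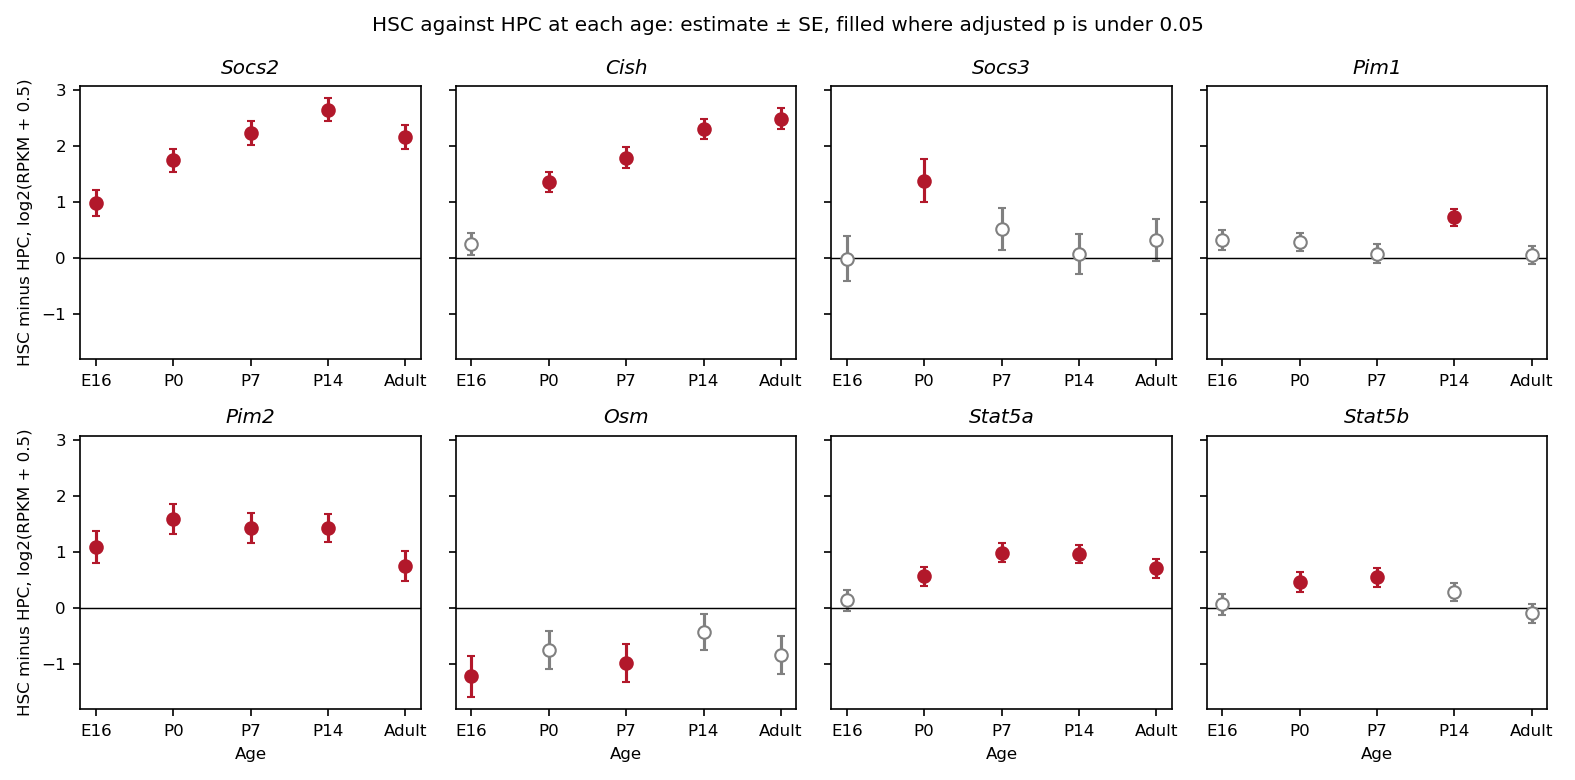
Difference of HSC minus HPC at each shared age for 8 genes, on the log2(RPKM + 0.5) scale, with bars of ± 1 SE. Filled points passed the test. Socs2 and Cish lie above 2 at P14 and in adults, Pim2 stays above 0, and Osm lies below 0.

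At P0, Socs2, Cish and Stat5b were higher in HPC labelled Ifnar ko, and none of the 9 genes was called in HSC. In HPC, Socs2 was at 4.41, 3.12, 4.0 and 4.11 RPKM in cells labelled Ifnar ko, against 1.78, 1.92, 2.32 and 1.83 RPKM in wild type cells, and the log2 difference was 0.93 ± 0.16 (edgeR adjusted p = 0.0035). Cish was at 4.48, 3.23, 2.51 and 3.61 RPKM in Ifnar ko HPC, against 1.85, 1.91, 2.24 and 1.87 RPKM in wild type HPC, a difference of 0.75 ± 0.20 (adjusted p = 0.0315). Stat5b was at 10.7, 13.0, 14.2 and 13.2 RPKM in Ifnar ko HPC, against 10.2, 7.93, 8.21 and 8.57 RPKM in wild type HPC, a difference of 0.48 ± 0.14 (adjusted p = 0.0402). Stat5a, at 0.49 ± 0.15, had groups that did not overlap but no call (adjusted p = 0.0538). The 3 calls of 8 genes stand beside 10.4% of 12988 genes called. The call of Cish ended without any library but replicate 3 of Ifnar ko or replicate 4 of wild type (adjusted p up to 0.0927). That of Stat5b ended without replicate 2, 3 or 4 of Ifnar ko or replicate 2 or 3 of wild type (up to 0.124). The Socs2 call held in all 8 such fits. The calls of Cish and Stat5b also ended with a term for Y-linked genes (edgeR adjusted p = 0.128 and 0.186) and with a replicate block (0.0787 and 0.0918). That of Stat5b ended without a filter as well (0.0521). Summed Y-linked genes were at 46.8 to 56.3 RPKM in Ifnar ko HPC and 0 to 51.1 in wild type HPC.

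Markers of other cells shifted in the same P0 HPC comparison. In Ifnar ko HPC, 4 of 6 HSC markers were called higher and 1 lower, 2 of 3 megakaryocyte and 2 of 3 erythroid markers tested were higher, and 3 of 5 macrophage markers tested and all 4 B cell markers were lower. Summed megakaryocyte markers were at 196.3 to 359.4 RPKM in Ifnar ko HPC and 100.5 to 157.3 in wild type HPC, summed erythroid markers at 27.4 to 38.2 and 14.3 to 20.8, summed macrophage markers at 4.37 to 12.6 and 24.6 to 31.0, and summed HPC markers at 635.6 to 904.2 and 1025.0 to 1124.3. No B cell, megakaryocyte or erythroid marker was at 0 throughout either group. Their part in the higher Socs2 and Cish was not tested.

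In P0 HSC, Socs2 was at 3.27, 3.8, 6.7 and 6.5 RPKM in Ifnar ko cells, against 6.84, 6.75, 6.62, 5.84 and 6.2 RPKM in wild type cells. Replicates 1 and 2 of the Ifnar ko cells were below every wild type library, the other 2 were within their range, and the difference was -0.35 ± 0.18 (edgeR adjusted p = 0.583). Cish averaged 5.85 ± 1.11 RPKM in Ifnar ko HSC and 5.67 ± 0.43 RPKM in wild type HSC (SD, n = 4 and 5), a difference of 0.05 ± 0.15 (adjusted p = 0.934). Of all 16224 genes 1.14% were called in this comparison, with 1469 at an unadjusted p under 0.05. DESeq2 likewise called none of the 9 genes. Whether the effect in HPC differs from that in HSC was not tested, since the cell types were fitted apart.

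**Figure D5:**
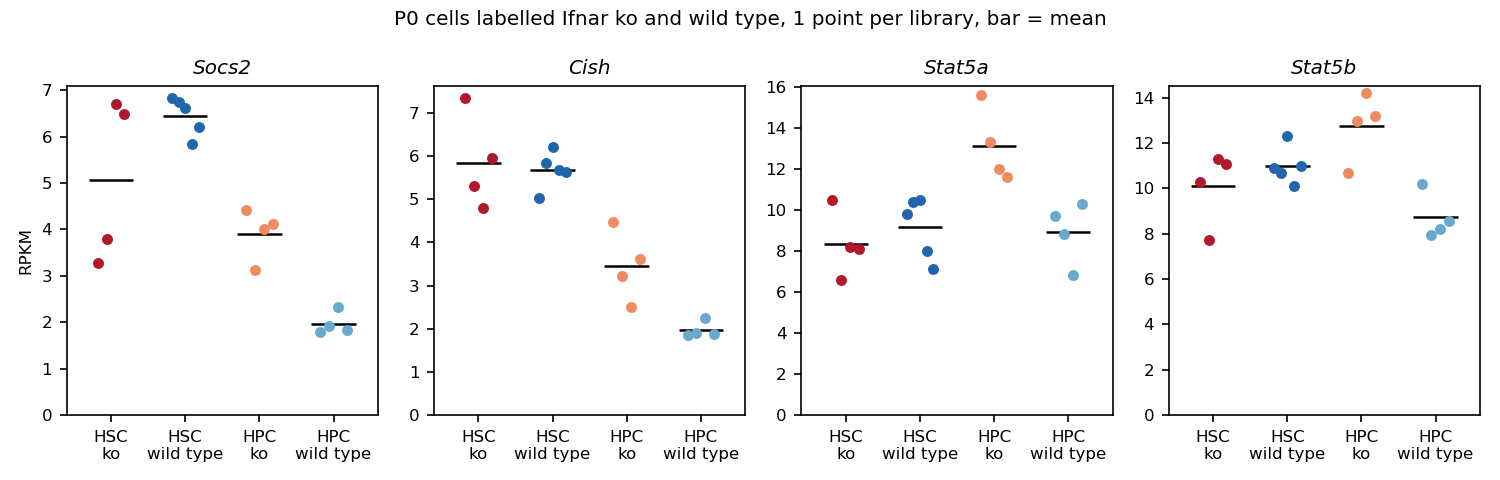
Levels of Socs2, Cish, Stat5a and Stat5b at P0 in RPKM on linear axes, in cells labelled Ifnar ko (left of each pair) and wild type, for HSC and HPC. Points are libraries and bars are group means. The HPC pairs do not overlap for the 4 genes, and the HSC pairs do. Socs1, Socs3, Pim1, Pim2 and Osm, which are not drawn, overlap in HPC. The share of all genes without overlap was not counted.

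Likeness was ranked among genes tested, leaving out the 9 genes and all predicted or unnamed genes. The profiles most like that of Socs2 across the 17 P14 HPC libraries, by Pearson's r on log2 CPM, were those of Ccn3 (r = 0.976), Adgre1 (0.96) and Tgm1 (0.949). Those most like Cish were Kcnk5 (0.947), Adgre1 (0.927) and Tgm1 (0.921). Across the 26 HSC libraries of the age series, on log2(RPKM + 0.5), the nearest to Socs2 were Ifitm1 (0.863), Clip3 (0.841) and Epsti1 (0.836), and the nearest to Cish were H2-Q6 (0.96), Klf9 (0.958) and Ninj1 (0.951). These values describe libraries that share a group structure, and the H2 genes have close relatives between which reads can be split.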

How the data were processed

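The members and all gene lists were chosen with earlier results of these data known. The authors deposited 2 gene tables made with STAR 3.0.4 and featureCounts 1.4.5, per the submitters' processing notes; the build is not given in the sources used here. The deposited counts are raw reads per Ensembl gene (HPC ages and all genotype libraries). The HSC ages were deposited as RPKM by the authors, although the table is named as counts. Whole reads came back for 25622 of 25622 detected genes (tolerance 1e-05 of a read), which gave depths and an added count test. Lengths were those of GENCODE M21 for 16638 genes. For the other 8984, Socs1 and Pim1 among them, the length was the shortest up to 120000 bases that gave whole reads. Whole reads are thus no check for those genes, and their true length may be longer. The other counts were turned into RPKM with the same lengths to show levels. Levels in the 2 tables were not tested against each other, and 1 column that no label matches was not used. A further 2 rows that name no mouse gene, at most 0.000144% of counts, were left out.

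Counts were tested with edgeR 4.0.16 (quasi-likelihood, TMM, filterByExpr) in R 4.3.3. For HSC ages and HSC against HPC, limma 3.58.1 with a robust trend was run on TMM-scaled RPKM as log2(RPKM + 0.5), a scale that understates changes of low genes. Genes entered when they passed 1 RPKM in a number of libraries equal to the smallest group. P-values were adjusted by Benjamini and Hochberg over all genes tested, with calls under 0.05; 26 comparisons were made, several of which share libraries. Alternatives were DESeq2 1.42.0, no filter, no scaling, other pseudocounts, only the groups compared, a replicate block, a Y-linked covariate, edgeR on recovered reads and leaving out each library. Simulated counts were used to try edgeR on the ITD in Ifnar +/- HPC and on HPC Adult against E16, and limma on HSC Adult against E16. The other comparisons and settings were not simulated. Named were the 9 genes, up to 6 called genes of smallest adjusted p per pathway list in the Flt3 ITD and Adult against E16 comparisons, and the 3 genes most like Socs2 and Cish by Pearson's r. Predicted or unnamed genes were left out of that last ranking. The labels do not say whether replicate numbers pair libraries. Same-numbered pairs of the age series correlated above 0.1 in 0 of 73 HSC and 5 of 36 HPC pairs. Among genotype libraries they did so in 0 of 4 P0 HSC, 1 of 4 P0 HPC and 8 of 24 P14 pairs, with a highest value of 0.226. Promoter sequences are RefSeq's. Single values of a few genes of the pathway lists are not reported here.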

Additional observations from a re-analysis of the deposited data

Results flagged for a closer look

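Among 153 groups of 4 or 5 libraries, taken gene by gene, 6 had a library far from the others, where chance gives about 1 in 20. Socs1 was at 0.685 RPKM in replicate 1 of Ifnar ko P0 HSC, against 0.157 to 0.212 in the others. Socs3 was at 0.875 RPKM in replicate 3 of P7 HPC, against 0.161 to 0.225. Cish was at 2.24 RPKM in replicate 3 of wild type P0 HPC, against 1.85 to 1.91. It was at 3.92 RPKM in replicate 2 of P14 Ifnar +/-, Flt3 +/+ HPC, against 1.8 to 2.03, and this is the library with the lowest correlation with its group. Pim1 was at 24.6 RPKM in replicate 1 of P14 HPC of the age series, against 39.9 to 44.3. It was at 106.3 RPKM in replicate 1 of P14 Ifnar -/-, Flt3 +/+ HPC, against 73.5 to 78.9.

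The change between E16 and Adult differed between HSC and HPC by a test of the difference itself, by 1.18 on the log2 scale for Socs2 and by 2.23 for Cish as HSC minus HPC (limma adjusted p = 0.0194 and 4.09e-07). Cish rose by more in HSC, whereas Socs2 fell in HPC and had no called change in HSC.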

How the results depend on the processing

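Of 215 results on single genes of the 9, 57 were called, and 42 of these were called in the same direction in every refit. The other 15 lost their call under some setting, 12 of them by leaving out a library, 10 with a Y-linked covariate and 5 with the replicate block, and none reversed its direction. The Socs2 and Cish calls with the Flt3 ITD held in every refit. Conversely, 28 results without a call gained one under some setting. The count of calls among the 9 genes changed by more than 1.5 times, with libraries kept, in the cases that follow, and the cause was not tested. With only the groups compared they numbered 1 for HSC Adult against P14 (otherwise 0), 2 for HPC P7 against P0 (otherwise 1) and 4 for the ITD in Ifnar -/- HPC (otherwise 2). The replicate block gave 1 for HSC Adult against P14, 0 for HPC P7 against P0 and 1 for P0 HPC (otherwise 3). Whether the replicate numbers pair libraries is not given. P14 same-numbered pairs had a median correlation of 0.023, against -0.012 for other pairs, and P0 HPC pairs had 0.011, against -0.004. A Y-linked covariate gave 1 for HPC P14 against P7 (otherwise 3), 2 for HSC against HPC in adults (otherwise 4), 1 for the difference of the age changes (otherwise 2) and 1 for P0 HPC. DESeq2 gave 4 for the ITD in Ifnar -/- HPC, 1 for Ifnar -/- in Flt3 +/+ HPC and 1 for the interaction (both otherwise 0). edgeR on recovered reads gave 1 for HSC Adult against P14. Within that limit, single calls also ended for Socs2 at P14 against P7 and Socs3 in adults against P14 in HPC under the replicate block (adjusted p = 0.0565 and 0.0693).

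Without 1 library each, the calls ranged from 0 to 1 for HSC P0 against E18, HSC Adult against P14 and HPC P7 against P0. They ranged from 1 to 2 for HSC P7 against P0 and the difference of the age changes, from 1 to 3 for HSC against HPC at E16, from 1 to 4 for P0 HPC, from 3 to 7 for the ITD in Ifnar +/- HPC, and from 0 to 3 for Ifnar -/- in Flt3 +/+ HPC and for the interaction.

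Counts over all genes moved by more than 1.5 times in these cases. With only the groups compared, they were 165 for the ITD in Ifnar +/- HPC (otherwise 846), 295 in Ifnar -/- HPC (otherwise 168), 42 for Ifnar -/- in Flt3 +/+ HPC (otherwise 766), 1368 in Flt3 ITD/+ HPC (otherwise 704), 133 for HSC P0 against E18 (otherwise 642), 417 for HSC P7 against P0 (otherwise 790), 205 for HPC P0 against E16 (otherwise 483), 645 for HPC P7 against P0 (otherwise 222) and 2665 for HPC Adult against P14 (otherwise 4262). DESeq2 gave 2704, 419, 3146 and 1341 for the same P14 contrasts, 859 for the ITD over both genotypes (otherwise 520), 2534 for the interaction (otherwise 2), 845 for HPC P0 against E16, 406 for HPC P7 against P0 and 336 for P0 HSC (otherwise 185). The replicate block gave 1524 for the ITD in Ifnar +/- HPC, 1293 and 452 for Ifnar -/- in Flt3 +/+ and Flt3 ITD/+ HPC, and 0 for the interaction. The Y-linked covariate gave 81 for Ifnar -/- in Flt3 +/+ HPC, 385 for HPC P14 against P7 (otherwise 1452), 1882 for HSC Adult against E16 (otherwise 3292), 85 for P0 HSC and 0 for the interaction. With no filter they were 477 for HSC E18 against E16 (otherwise 737), 150 for HSC P14 against P7 (otherwise 234) and 12 for the interaction. For HSC E16 against E14 (otherwise 7) these settings gave 0 to 14. Socs1, Socs3 and Osm had few reads, at most 25, 173 and 230 in any library of the age series.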
